A study of Mus musculus with 12 samples.

Results

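The 10 genes described here encode a ligand and both signalling receptors of the TGF-beta pathway (Tgfb1, Tgfbr1 and Tgfbr2), a colony stimulating factor and 3 receptor chains for such factors (Csf1, Csf2ra, Csf2rb and Csf3r), and 3 interleukin receptor chains (Il10ra, Il6ra and Il13ra1). They were taken by name, and every probe annotated with 1 of these symbols was used, 24 of the 45281 probes on the array. A probe was counted as well measured when its detection p-value, the chance that a blank probe would be as bright, was under 0.01 on at least 4 of the 12 arrays. By this limit 12 of the 24 probes were well measured and covered 9 of the 10 genes, out of 10031 genes so covered in all. The exception was Csf2rb, whose 3 probes were detected on 0 of 12 arrays.

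TGF-beta1 is a secreted cytokine, stored in a latent complex, that binds the type II receptor, which then phosphorylates the type I receptor and through it the SMAD proteins. In the brain it is known as a signal that restrains microglia, the resident macrophages, and keeps them in their mature state. The colony stimulating factors and the interleukins act through other receptors on microglia, macrophages, granulocytes and glia, many of them coupled to the JAK kinases and STAT factors, with SOCS proteins as feedback inhibitors.

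The mice were BACHD animals, transgenic for the human gene whose expansion causes Huntington disease, in its mutant form and under huntingtin's own regulation. All 12 carried this transgene, so no group without it was compared. They were 5 months old, and each received 1 injection into the striatum of PBS (4 mice), of an antisense oligonucleotide against wig-1 (wig-1 ASO, 4 mice) or of a control ASO of the same chemistry with no known target (4 mice). RNA was hybridised to 1 array per mouse, and the interval between injection and sampling is not given for these arrays in the sources used here. The labels name the tissue only as brain, the study's methods as striatum, and 12 of 14 markers of medium spiny neurons, the main striatal neurons, were well measured. In tissue RNA, fewer cells of a type and less RNA per cell cannot be told apart.

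The deposited signals were already quantile normalised and are given as log2 signal. Between 15228 and 17198 probes were detected per array, fewest on wig-1 ASO replicate 1. Zmat3, the gene that encodes wig-1, had log2 signals of 8.57, 8.60, 8.37 and 8.44 in the PBS group, 6.89, 6.63, 6.77 and 5.95 in the wig-1 ASO group and 8.48, 8.47, 8.53 and 8.31 in the control ASO group, so that every wig-1 ASO array lay below all others. It was at 26.2% of its PBS level with wig-1 ASO (log2 difference −1.93, SE 0.18, adjusted p = 0.000842 from limma) and at 96.7% with control ASO. The 3 groups entered 1 limma fit, p-values were adjusted over the 17188 well measured probes, and “rose” and “fell” are used only for genes with an adjusted p under 0.05. Where a gene had several well measured probes, the one of highest mean signal stands for it. Single probes were also compared by two-sided exact permutation tests, in which 4 arrays against 4 cannot give a p below 0.029.

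Tgfb1, the ligand of the TGF-beta pathway, and Csf2ra, the alpha chain of the GM-CSF receptor, rose with wig-1 ASO relative to PBS. The measured means of Tgfb1 differed 4.15-fold, or 3.22-fold with signals not detected on an array raised to the lowest detected signal of that array, and those of Csf2ra 1.83-fold. These were 2 of the 9 measured genes, where 2.83% of all measured genes rose and 0.977% fell. None of the 9 fell. Each of the 9 had a higher mean with wig-1 ASO than with PBS, as 48.1% of all measured genes did, and the median log2 difference was 0.87 for the 9 genes and −0.01 for all genes. In 5 of the 9, namely Tgfb1, Tgfbr1, Tgfbr2, Csf2ra and Il6ra, every wig-1 ASO array lay above every PBS array, which was the case for 6.55% of all measured genes. Relative to control ASO only Tgfb1 of the 9 rose, where 0.788% of all genes did, and in 2 of 9, Tgfb1 and Csf2ra, every wig-1 ASO array lay above every control ASO array, where 4.74% of all genes did.

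The stretches upstream of the genes that rose, and of Tgfbr2, whose separation between groups came close to the threshold, are shown for the base composition and motifs that set the genes apart from one another. Each is the 250 bases before a RefSeq transcription start in GRCm38.p6, written 5′ to 3′ on the strand of the gene. Capitals mark the core GAGGAA of the site for PU.1, a transcription factor of myeloid cells, and the GC box GGGCGG of Sp1, each on either strand. The stretch of Tgfb1 is chr7:25686752-25687001 on the plus strand, that of Csf2ra is chr19:61228419-61228668 on the minus strand, and that of Tgfbr2 is chr9:116175364-116175613 on the minus strand.
Tgfb1: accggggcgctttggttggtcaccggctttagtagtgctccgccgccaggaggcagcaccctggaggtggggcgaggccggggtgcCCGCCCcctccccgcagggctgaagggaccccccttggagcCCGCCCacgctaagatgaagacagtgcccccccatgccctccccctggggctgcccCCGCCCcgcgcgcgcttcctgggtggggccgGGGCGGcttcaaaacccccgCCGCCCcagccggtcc
Csf2ra: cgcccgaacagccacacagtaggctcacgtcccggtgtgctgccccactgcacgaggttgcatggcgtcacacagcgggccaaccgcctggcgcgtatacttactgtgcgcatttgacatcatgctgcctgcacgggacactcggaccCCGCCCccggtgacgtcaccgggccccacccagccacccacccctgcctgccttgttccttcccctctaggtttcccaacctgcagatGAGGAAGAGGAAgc
Tgfbr2: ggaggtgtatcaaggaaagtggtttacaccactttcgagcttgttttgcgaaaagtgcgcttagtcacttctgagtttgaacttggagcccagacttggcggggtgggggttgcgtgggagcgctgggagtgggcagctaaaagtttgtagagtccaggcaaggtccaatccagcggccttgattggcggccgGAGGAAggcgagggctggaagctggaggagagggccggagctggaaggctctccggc

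Tgfb1 held 5 GC boxes and 0 PU.1 cores in a stretch of 75.2% G and C, Csf2ra held 1 GC box and 2 PU.1 cores in 64.8%, and Tgfbr2 held 0 and 1 in 58.4%. The median over 32851 stretches of this kind was 52.4%. RefSeq entries were found for 8 of the 10 genes, with 9 stretches since Tgfbr1 has 2, and none was found for Csf2rb and Il10ra. The PU.1 core was present in 5 of the 9 stretches (Csf2ra, Csf3r, Il6ra, Tgfbr1 and Tgfbr2) and in 23.3% of all. The GC box was present in 5 of the 9 (Tgfb1, Csf1, Csf2ra, Il13ra1 and Tgfbr1) and in 32.7% of all. The palindromic STAT site TTCNNNGAA, the AP-1 site TGANTCA and the SMAD palindrome GTCTAGAC, also searched on both strands, were in 0 of the 9, and in 7.02%, 6.75% and 0.167% of all. These matches describe the letters in this window only.

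**Figure D1:**
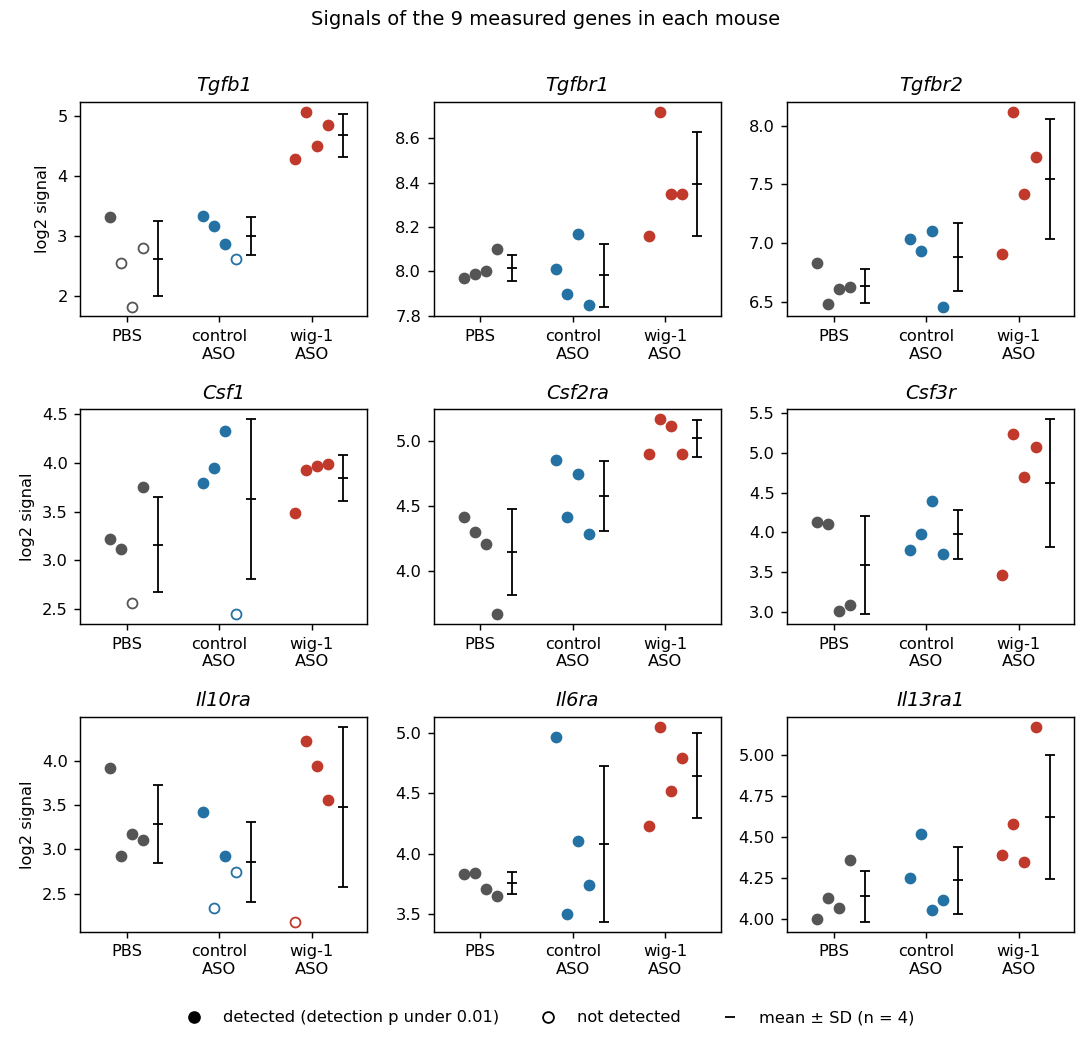
Log2 signal of the 9 measured genes in each of the 12 mice, at the probe of highest mean signal. Points are single arrays, in the order of their replicate numbers, open where the probe was not detected, and bars give the mean ± SD of 4 arrays. The vertical range differs between panels. The 4 wig-1 ASO arrays of Tgfb1 lie between 4.28 and 5.07, above all 8 other arrays, and Csf2ra shows the same separation with a smaller distance.

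For Tgfb1 the log2 signals were 3.32, 2.54, 1.82 and 2.80 in the PBS-treated mice, 4.28, 5.07, 4.49 and 4.85 with wig-1 ASO and 3.33, 3.16, 2.86 and 2.62 with control ASO. All wig-1 ASO arrays were above all others, while PBS and control ASO arrays overlapped. The probe was detected on 1 of 4 PBS arrays, 4 of 4 wig-1 ASO arrays and 3 of 4 control ASO arrays, so the PBS mean of 2.62 ± 0.62 (SD, n = 4) lies near the detection limit and the size of the difference from PBS is uncertain. Tgfb1 rose by 2.05 on the log2 scale relative to PBS (SE 0.29, adjusted p = 0.00764 from limma, exact permutation p = 0.029), or by 1.69 with undetected signals raised to that floor. Relative to control ASO it rose by 1.68 (SE 0.29, adjusted p = 0.0410), 3.20-fold. Control ASO and PBS differed by 0.38 (SE 0.29, adjusted p = 0.807). The rise over PBS passed in each of the 12 fits that left out 1 array, whereas that over control ASO passed in 4 of 12, with adjusted p between 0.0129 and 0.115.

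Tgfbr2, the type II receptor that binds the ligand, gave 6.83, 6.48, 6.61 and 6.63 with PBS, 6.91, 8.12, 7.42 and 7.73 with wig-1 ASO and 7.04, 6.93, 7.10 and 6.46 with control ASO. The wig-1 ASO arrays were all above the PBS arrays, replicate 1 by the least, and that replicate also lay within the range of the control ASO arrays. The difference from PBS was 0.91 (SE 0.23), 1.88-fold, and did not pass (adjusted p = 0.0549 from limma, exact permutation p = 0.029), nor did that from control ASO (0.66, SE 0.23, adjusted p = 0.216). Without wig-1 ASO replicate 1 the difference from PBS passed (adjusted p = 0.00699). Of its other 3 probes, none was well measured.

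Tgfbr1, the type I receptor, carries the signal to the SMAD proteins and had 2 well measured probes. The brighter one gave 7.97, 7.99, 8.0 and 8.10 with PBS, 8.16, 8.72, 8.35 and 8.35 with wig-1 ASO and 8.01, 7.90, 8.17 and 7.85 with control ASO. All wig-1 ASO arrays were above all PBS arrays, and replicate 1 lay just under the highest control ASO array. The differences were 0.38 from PBS (SE 0.12, adjusted p = 0.132 from limma, exact permutation p = 0.029) and 0.41 from control ASO (SE 0.12, adjusted p = 0.158, exact permutation p = 0.057), and neither passed. A dimmer probe, detected on 6 of 12 arrays, differed from PBS by 0.24 (SE 0.47, adjusted p = 0.850).

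Other genes of TGF-beta signalling were taken from 2 lists, and their counts stand beside the 2.83% of all measured genes that rose. Of 24 ligands, activators and co-receptors 19 were measured, and 2 rose and 0 fell relative to PBS, with a median of 0.13. Those that rose were Itgb5, an integrin chain that with the alpha V chain can activate latent TGF-beta, by 0.94 (SE 0.19, adjusted p = 0.0272), and Eng, the co-receptor endoglin known from endothelial cells, by 0.85 (SE 0.18, adjusted p = 0.0280). Neither passed relative to control ASO (adjusted p = 0.248 and 0.419), and with 1 array left out Itgb5 did not pass in 6 of 12 fits and Eng in 4. The ligands Tgfb2 and Tgfb3 differed from PBS by 0.21 and 0.23 and the co-receptor Tgfbr3 by 0.13, with adjusted p between 0.389 and 0.822.

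Of 25 SMAD proteins, SMAD regulators and TGF-beta target genes 15 were measured, and 0 rose and 0 fell, with a median of 0.06. The receptor-activated Smad2 and Smad3 differed by −0.17 (adjusted p = 0.595) and −0.37 (adjusted p = 0.288). The inhibitory Smad7 was undetected on all arrays, and Smad4, the shared partner, was not analysed here. The widest separation in this list, singled out after its values were seen, was in Tgfbi, a matrix protein named for its induction by TGF-beta. It gave 3.83, 4.31, 3.73 and 4.33 with PBS, 4.44, 6.82, 6.03 and 5.95 with wig-1 ASO and 5.33, 4.02, 4.76 and 4.45 with control ASO. All wig-1 ASO arrays lay above all PBS arrays, replicate 1 only just, and the difference of 1.76 (SE 0.43) had an adjusted p of 0.0507. Its difference of 1.17 from control ASO did not pass either (SE 0.43, adjusted p = 0.248 from limma).

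Csf2ra, whose product binds GM-CSF and signals together with the beta common chain, gave 4.42, 4.30, 4.21 and 3.67 with PBS, 4.90, 5.17, 5.12 and 4.90 with wig-1 ASO and 4.86, 4.42, 4.75 and 4.29 with control ASO. The wig-1 ASO arrays were above all others, though the nearest control ASO array was only slightly lower. It was detected on all 12 arrays. The means were 4.15 ± 0.33 in the PBS group, 4.58 ± 0.27 in the control ASO group and 5.02 ± 0.15 in the wig-1 ASO group (each SD, n = 4), which put control ASO about midway. Csf2ra rose by 0.87 relative to PBS (SE 0.18, adjusted p = 0.0259 from limma), while the difference of 0.44 from control ASO did not pass (SE 0.18, adjusted p = 0.286, exact permutation p = 0.029). The rise was lost when any 1 of PBS replicates 2 and 3 and wig-1 ASO replicates 2, 3 and 4 was left out, with adjusted p between 0.0214 and 0.0838 over the 12 fits. Control ASO was itself above PBS by 0.43 (SE 0.18, adjusted p = 0.713).

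Csf2rb, the beta common chain that GM-CSF, interleukin-3 and interleukin-5 receptors share, had 3 probes whose log2 signals lay between 1.04 and 2.68. None was detected on any array, so that no group difference could be read for it. The closely related Csf2rb2, which serves interleukin-3 in the mouse, was undetected on all arrays as well, and so was the ligand gene Csf2.

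Csf3r, the receptor for G-CSF known from granulocytes, was read by 2 well measured probes that differed in their calls. The brighter gave 4.13, 4.11, 3.01 and 3.09 with PBS, 3.46, 5.24, 4.69 and 5.08 with wig-1 ASO and 3.78, 3.98, 4.40 and 3.73 with control ASO. Wig-1 ASO replicate 1 lay within the PBS range while the other 3 wig-1 ASO arrays lay above every other array. The difference of 1.03 from PBS did not pass (SE 0.39, adjusted p = 0.191 from limma), and without that replicate it did (adjusted p = 0.0222).

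The dimmer probe of Csf3r gave 2.36, 2.61, 1.49 and 1.26 with PBS, 3.41, 4.19, 3.40 and 4.33 with wig-1 ASO and 2.58, 1.37, 3.01 and 1.98 with control ASO. It was detected on 0, 4 and 1 of the 4 arrays of these groups, and all wig-1 ASO arrays were above all others. The wig-1 ASO arrays alone brought it to the detection limit, so its test against PBS is not independent of that limit. It rose by at least 1.95-fold relative to PBS (adjusted p = 0.0282), where the bound sets each undetected PBS signal at the lowest detected signal of its array. It was detected on 1 control ASO array, and its measured difference of 1.59 from that group did not pass (SE 0.40, adjusted p = 0.0916). With undetected signals raised in the same way, which also narrows their spread, that difference was 0.91 (adjusted p = 0.0356). The other 3 of the 5 probes of Csf3r were undetected on all arrays.

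Csf1, the ligand of the receptor on which microglia depend, gave 3.22, 3.11, 2.56 and 3.75 with PBS, 3.49, 3.93, 3.97 and 3.99 with wig-1 ASO and 3.79, 3.95, 4.33 and 2.44 with control ASO. The groups overlapped, and control ASO held both the highest and the lowest array. The difference between wig-1 ASO and PBS was 0.68 (SE 0.37, adjusted p = 0.359 from limma) and that between wig-1 ASO and control ASO 0.22 (SE 0.37, adjusted p = 0.850). Its receptor Csf1r was higher on 3 of the 4 wig-1 ASO arrays than on any other array, at 8.04, 7.82 and 7.96, with replicate 1 at 7.24. The difference of Csf1r from PBS was 0.78 (SE 0.19, adjusted p = 0.0541). The second ligand of that receptor, Il34, differed by −0.05 (adjusted p = 0.929). Of the 12 other genes of the CSF and beta common chain family 4 were measured, of which 0 rose and 0 fell.

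Il6ra, the chain that binds interleukin-6, gave 3.83, 3.84, 3.71 and 3.65 with PBS, 4.23, 5.05, 4.52 and 4.79 with wig-1 ASO and 4.97, 3.50, 4.11 and 3.74 with control ASO. All wig-1 ASO arrays were above all PBS arrays, and control ASO replicate 1 was as high as the upper wig-1 ASO arrays. The difference from PBS was 0.89 (SE 0.28), 1.86-fold, and did not pass (adjusted p = 0.113 from limma). It passed in 1 of 22 alternative fits, that without control ASO replicate 1 (adjusted p = 0.0350), an array outside the 2 groups compared. A dimmer probe, detected on 4 of 12 arrays, differed by 0.47 (SE 0.30, adjusted p = 0.456).

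Il13ra1, a chain that interleukin-13 and interleukin-4 use, gave 4.0, 4.13, 4.07 and 4.36 with PBS, 4.39, 4.58, 4.35 and 5.17 with wig-1 ASO and 4.25, 4.52, 4.06 and 4.12 with control ASO. Wig-1 ASO replicate 4 stood highest, and control ASO replicate 2 lay above 2 of the other 3 wig-1 ASO arrays. The difference from PBS was 0.48 (SE 0.18, adjusted p = 0.188 from limma). Il10ra, the ligand-binding chain for interleukin-10, gave 3.92, 2.92, 3.17 and 3.11 with PBS, 2.18, 4.22, 3.94 and 3.56 with wig-1 ASO and 3.42, 2.34, 2.92 and 2.74 with control ASO. Its lowest array of all was wig-1 ASO replicate 1, where it was not detected, and its difference from PBS was 0.20 (SE 0.40, adjusted p = 0.854).

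The partner chain of Il10ra, Il10rb, was higher on all wig-1 ASO arrays, at 3.83, 4.70, 3.81 and 4.60, than on the PBS arrays, at 3.30, 2.84, 3.70 and 2.61. The difference of 1.12 (SE 0.30) did not pass (adjusted p = 0.0687 from limma). Of 44 interleukin and interferon receptors and ligands 12 were measured, of which 0 rose and 0 fell, with a median of 0.10. The ligand genes Il6 and Il10 and the receptor chains Il4ra and Il13ra2 were undetected on all arrays, while Il6st, the signalling partner of Il6ra, was detected on too few.

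**Figure D2:**
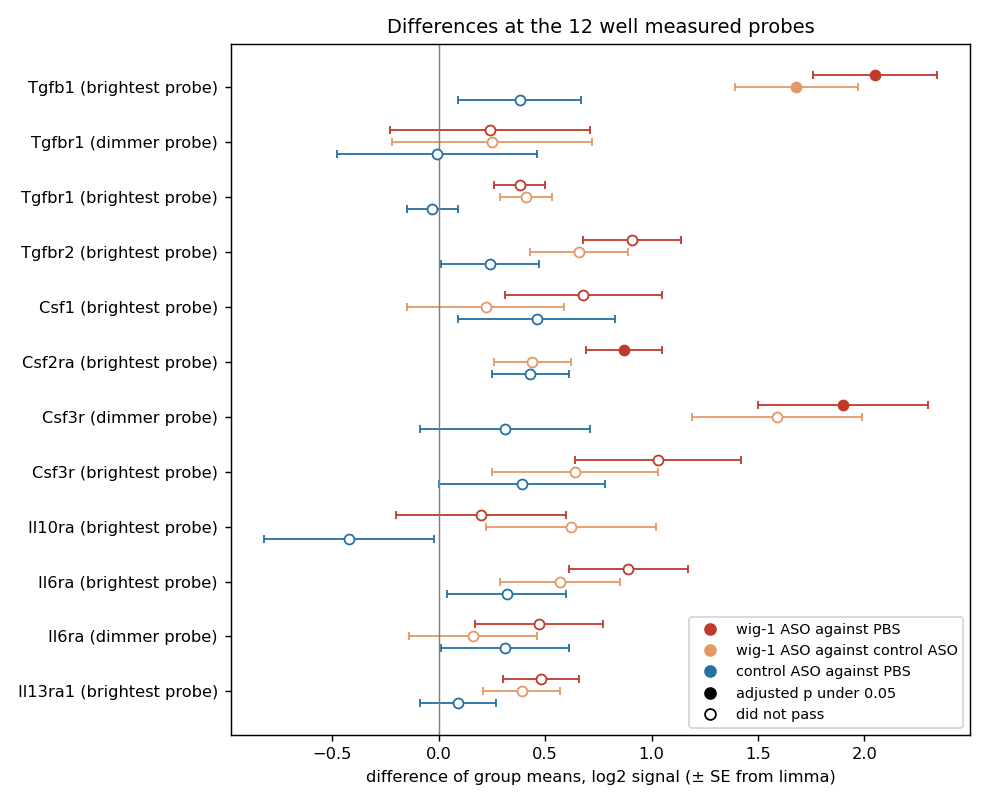
Difference of group means in log2 signal (horizontal axis) at the 12 well measured probes of the 9 genes, for the 3 comparisons. Bars give ± 1 SE from limma and filled points passed at an adjusted p under 0.05. The points of wig-1 ASO against PBS all lie to the right of 0, from 0.20 for Il10ra to 2.05 for Tgfb1, and 3 of these 12 passed. Among these 3, the dimmer probe of Csf3r was undetected on all PBS arrays and met the detection limit through the wig-1 ASO arrays.

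Between control ASO and PBS none of the 9 genes passed in limma, and 0% of all measured genes rose. Without adjustment Csf2ra alone of the 9 was higher at a limma p under 0.05, as were 3.13% of all genes. In 0 of the 9 did every control ASO array lie above every PBS array, where 2.49% of all genes did. The mean was higher with control ASO in 7 of 9, compared with 51.5% of all genes, and the median difference was 0.32 for the 9 genes and 0.01 for all. In those 7 genes the mean with control ASO lay between the means with PBS and wig-1 ASO. Each pair of comparisons shares 1 group, so their values are not independent of one another.

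Downstream of the cytokine receptors, 6 of 22 measured genes of the JAK, STAT and SOCS list (31 genes in all) rose and 0 fell, with a median of 0.25, where 2.83% of all measured genes rose. Socs3, a feedback inhibitor of interleukin-6 and G-CSF receptor signalling, gave 3.38, 2.66, 2.70 and 2.58 with PBS, 4.22, 5.19, 4.15 and 5.56 with wig-1 ASO and 3.71, 3.21, 3.11 and 3.48 with control ASO. The wig-1 ASO arrays were above all others, and 1 of the 4 PBS arrays detected the probe. Socs3 rose by 1.95 relative to PBS (SE 0.31, adjusted p = 0.0106 from limma), or by 1.78 with undetected signals raised to the floor. The rise passed in each fit that left out 1 array but not with only the 2 groups compared (adjusted p = 0.0520), and its difference of 1.40 from control ASO did not pass (SE 0.31, adjusted p = 0.0647).

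Ptpn6, the phosphatase SHP-1 of blood cells and microglia, rose by 1.44 relative to PBS (SE 0.28, adjusted p = 0.0220) and differed from control ASO by 1.33 (SE 0.28, adjusted p = 0.0542). Cebpb, a transcription factor of inflammatory and myeloid genes, rose by 0.96 relative to PBS (SE 0.20, adjusted p = 0.0280) and by 1.02 relative to control ASO (SE 0.20, adjusted p = 0.0453). Socs6, another SOCS protein, rose in both comparisons too, by 0.69 (SE 0.17, adjusted p = 0.0448) and 0.96 (SE 0.17, adjusted p = 0.0410). Shc1, an adaptor of activated receptors, rose by 0.47 relative to PBS (SE 0.10, adjusted p = 0.0359), and Jak3, the kinase of the common gamma chain, by 1.13 (SE 0.27, adjusted p = 0.0447). Jak3 was detected on 1 of 4 PBS arrays, and with undetected signals raised to the floor its difference was 0.75 and no longer passed (adjusted p = 0.0559). Relative to PBS and with 1 array left out, Ptpn6 did not pass in 5 of 12 fits, Cebpb in 7, Jak3 in 9, and Socs6 and Shc1 in 11 each. The kinases Jak1 and Jak2 differed by −0.15 and 0.11 (adjusted p = 0.604 and 0.761), and Stat3, the STAT used by interleukin-6, by 0.56 (SE 0.16, adjusted p = 0.0852). Relative to control ASO, Cebpb and Socs6 were the only genes of the 5 pathway lists that rose.

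**Figure D3:**
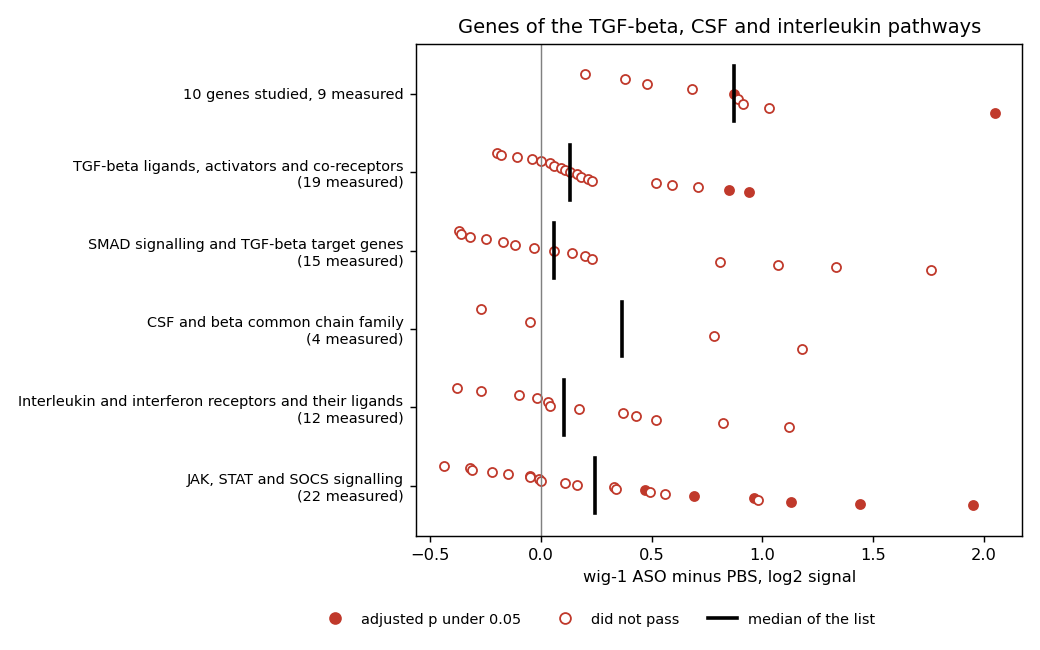
Difference between wig-1 ASO and PBS in log2 signal (horizontal axis) for each measured gene of the 9 described here and of 5 lists of related genes. Each point is a gene, filled where it passed at an adjusted p under 0.05, and the black bar is the median of the list. Most points of the 5 lists lie near 0, and 8 of them passed, 6 in the JAK, STAT and SOCS list.

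The mean log2 difference of the 9 genes from the PBS mean was 0.30, 1.20, 0.83 and 1.01 on wig-1 ASO replicates 1 to 4, −0.24 to 0.25 in the PBS group and −0.15 to 0.45 in the control ASO group. Replicate 1 was thus within the range of control ASO, and it was the lowest wig-1 ASO array for 7 of the 9 genes, with replicate 2 the highest for 7. Markers of microglia followed the same order at its ends, but were not alone in this. The SMAD list, the interleukin list and the JAK, STAT and SOCS list did so too. Markers of monocytes and neutrophils and of lymphocytes also did, while astrocyte markers did not. Of 18 microglia markers with a probe, 16 were measured. Relative to PBS 11 rose, where 2.83% of all measured genes did, and relative to control ASO 7 rose, where 0.788% did. Siglech and Sall1 differed from PBS by −0.44 and −0.21 (adjusted p = 0.338 and 0.44 from limma), and the other 14 had a higher mean. The microglia markers had a median difference from PBS of 0.94, and their mean difference was 0.74, 1.35, 1.06 and 1.31 on the wig-1 ASO arrays. Their summed signal was between 2130 and 2385 with PBS, between 3887 and 7292 with wig-1 ASO and between 2220 and 3434 with control ASO, while Ptprc was undetected on all arrays.

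Of 14 markers of monocytes and neutrophils with a probe, 4 were measured. Lyz2 and Plac8 rose relative to PBS, where 2.83% of all measured genes did. Lyz2 did not pass relative to control ASO (adjusted p = 0.0943 from limma). Every control ASO array of Lyz2 also lay above every PBS array, as for 2.49% of all measured genes. Plac8 was detected on 0 of 4 PBS, 3 of 4 wig-1 ASO and 1 of 4 control ASO arrays. Its test against PBS is thus not independent of the detection limit, and its rise was at least 1.58-fold (adjusted p = 0.0412 from limma). Its call was lost for 9 of the 12 arrays when each was dropped in turn. The defining neutrophil genes Mpo, Elane, Ngp, Camp, Ltf, Mmp8 and Cxcr2 and the monocyte receptor Ccr2 were undetected on all arrays. S100a8 and S100a9 were measured, and all their wig-1 ASO arrays were detected and lay above all control ASO arrays. S100a9, detected on 0 of 4 control ASO arrays, rose by at least 1.40-fold relative to that group (adjusted p = 0.0473 from limma). It was detected on 2 of 4 PBS arrays and reached the detection limit only through the wig-1 ASO arrays. Its tests are thus not independent of that limit. S100a9 did not pass relative to PBS (adjusted p = 0.266). S100a8 passed relative to neither (adjusted p = 0.183 for PBS and 0.087 for control ASO). The summed signal of this list was between 57.22 and 133.4 with PBS, between 304.9 and 2454 with wig-1 ASO and between 133.1 and 341.7 with control ASO. Lyz2, which microglia also express, made up 72.8% to 96.4% of that sum on each array, and the other 3 measured markers together gave 11.9 to 31.8 with PBS, 37.3 to 87.4 with wig-1 ASO and 8.89 to 19.2 with control ASO. Gfap was the only 1 of 10 astrocyte markers that rose, and none of the measured lymphocyte, oligodendrocyte, endothelial and pericyte markers did. Markers of medium spiny neurons had a median of −0.62 relative to PBS, with 0 of 12 past the test, and differed from PBS by 0.02, −0.97, −0.73 and −0.55 on wig-1 ASO replicates 1 to 4. The part of these cell types in the differences of the 9 genes was not tested.

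**Figure D4:**
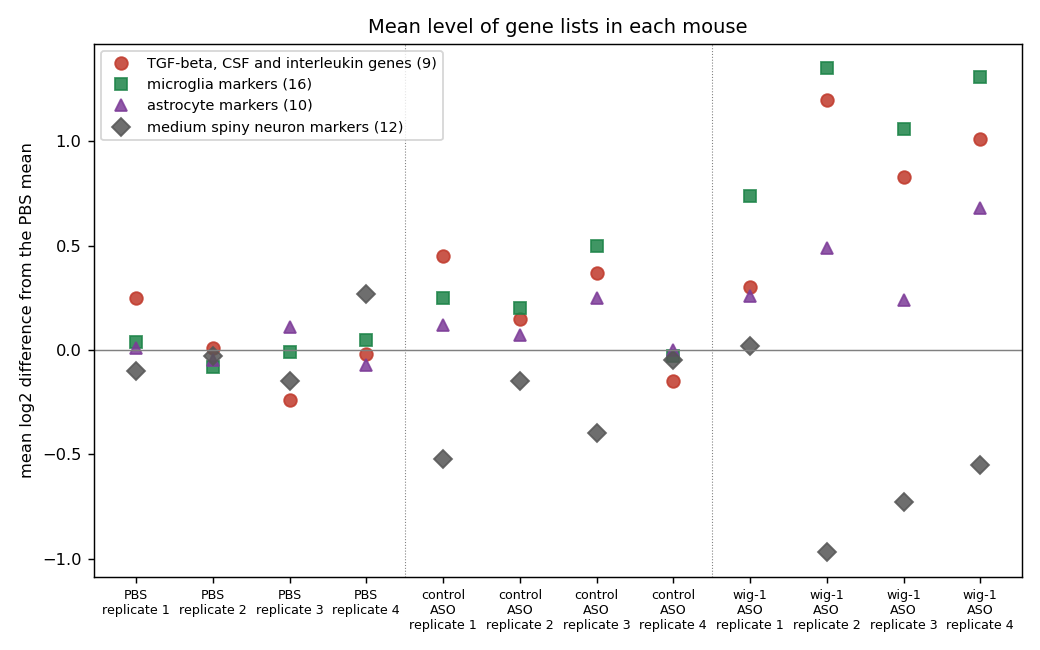
Mean log2 difference from the PBS mean (vertical axis) of the 9 genes and of 3 marker lists on each of the 12 arrays, with the number of measured genes in parentheses. The 9 genes and the microglia markers are both highest on wig-1 ASO replicate 2, at 1.20 and 1.35, and among the wig-1 ASO arrays lowest on replicate 1, at 0.30 and 0.74.

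The genes whose log2 signal over the 12 arrays was most like that of Tgfb1 were Havcr2, Tgm2 and Lgals9, each with a Pearson r of 0.95, and r was 0.75, 0.74 and 0.86 after the group means were removed. Those most like Csf2ra were Vcl (r = 0.95), Cd82 (r = 0.93) and Palld (r = 0.92), with r of 0.87, 0.80 and 0.79 after the group means were removed. These values are a description over 12 arrays that share the group differences and the normalisation.

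**Figure D5:**
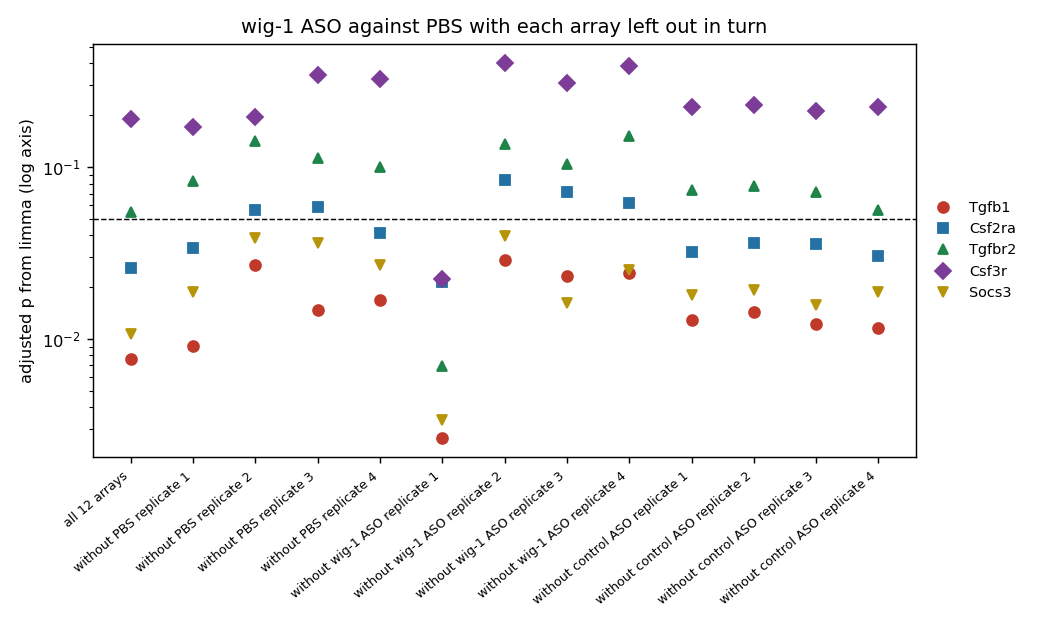
Adjusted p of wig-1 ASO against PBS (vertical axis, log scale) for 5 genes, with all 12 arrays and with each array left out in turn (horizontal axis). The broken line marks 0.05. Tgfb1 and Socs3 stay under the line in every fit, whereas Tgfbr2 and Csf3r lie under it only without wig-1 ASO replicate 1.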

How the data were processed

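RNA of 12 mice was hybridised to MouseWG-6 v2 BeadChip arrays from Illumina, and the authors analysed them with lumi and siggenes, at limits of 0.1 on the false discovery rate, 0.001 on p and 1.5 on the fold. The authors deposited a signal intensity and a detection p-value per probe and array, and log2 values that equal log2 of the intensities within 5.6e-09. The sorted intensities of the 12 arrays differ by 0, as quantile normalisation leaves them, so the plan to normalise raw intensities was dropped and no further normalisation was applied. The intensities run from 2 to 14145.

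Probes detected (p under 0.01) on at least 4 arrays were kept, 17188 of 45281. GEO's platform annotation names 1 gene on 34885 probes, more than 1 on 18 and no gene on 10378. Of these, 34807 matched GRCm38.p6 by gene ID and 0 symbols changed. The 3 comparisons were fitted in 1 model with limma 3.58.1 in R 4.3.3, which left 9 residual degrees of freedom, with Benjamini-Hochberg adjustment. The script was tested on simulated data with changes planted in the wig-1 ASO group, 50 of each size. Relative to PBS it recovered 22% of those of 0.585 on the log2 scale and 60% of those of 1.0. For changes of 2.0 and 3.0 it recovered 90% and 98%, and 11 probes were called falsely. Differences of the smaller sizes can thus go uncalled. Exact permutation tests covered 70 arrangements. Motifs were searched in the RefSeq upstream sequences supplied with the gene table.

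The 10 genes and all lists were chosen with earlier results of these data known, so their counts are descriptions. Named are the 10 genes, Zmat3, genes of each pathway list past the test (at most 6 by adjusted p), a fixed set of ligands, partner chains and transducers, and the 3 genes most correlated with each member that rose. Tgfbi was added after its values were seen. Precision is limited by having 4 arrays a group. Alternatives were other detection filters, an offset of 16, centring each array on its median, the deposited log2 table, array weights, the mean of probes per gene, only the groups compared, the study's limits, the replicate number as a block and leaving out each array. Raising undetected signals to the lowest detected signal of their array was added after the data were seen.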

Additional observations from a re-analysis of the deposited data

Results flagged for a closer look

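Of 36 groups of 4 arrays, 12 probes in 3 groups, 2 held an array that stood apart from the other 3 by Dixon's test, which chance alone passes in about 1 in 20 such groups. Both were wig-1 ASO replicate 1. For Csf1 its log2 signal was 3.49, against 3.93 to 3.99 on the other 3 wig-1 ASO arrays, a gap of 0.894 of the range. For the dimmer probe of Tgfbr1 it was 1.45, not detected, against 3.10 to 3.14, a gap of 0.973 of the range. The reason was not tested.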

How the results depend on the processing

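Relative to PBS, 2 of the 9 genes rose in the reported fit. The number became 4 (with Tgfbr2 and Csf3r) on the mean of kept probes per gene, 1 (Tgfb1) with no detection filter and 1 (Tgfb1) with only the 2 groups compared, and ran from 1 to 4 with 1 array left out, 4 (Tgfb1, Tgfbr2, Csf2ra and Csf3r) without wig-1 ASO replicate 1, and 1 when the array left out was replicate 2 or 3 of PBS or replicate 2, 3 or 4 of wig-1 ASO. Relative to control ASO, where 1 rose, it was 0 on probes detected on all 12 arrays (Tgfb1 was not among them), 0 with no detection filter and 0 with only the 2 groups compared. With 1 array left out it ran from 0 to 2, with 2 (Tgfb1 and Tgfbr2) when wig-1 ASO replicate 1 was left out and 0 when any other wig-1 ASO array, any control ASO array or PBS replicate 2 was. Between control ASO and PBS it was 0 throughout. All measured genes that rose varied too. Relative to PBS they were 284 in the reported fit and 517 without wig-1 ASO replicate 1. They were 123 with no detection filter and 61 with only the 2 groups compared. Where leaving out an array left 1 member, they were 88 to 119. Relative to control ASO they were 79 in the reported fit and 286 without wig-1 ASO replicate 1. They were 125 on probes detected on all 12 arrays. Where leaving out an array left 0 members, they were 2 to 24.

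Of the 5 pathway lists 8 genes rose. With array weights they were 14, with no detection filter 2, with an offset of 16 they were 16, with only the 2 groups compared 0, at the study's limits 5, and with 1 array left out from 1 (leaving out replicate 2 of PBS, or replicate 2 or 3 of wig-1 ASO) to 15 (without wig-1 ASO replicate 1). With the replicate number as a block the members that rose were 2 relative to PBS and 0 relative to control ASO, and the pathway genes were 3 (Socs3, Socs6 and Cebpb). Arrays with the same number had correlations of their deviations between −0.135 and 0.126, which give no sign that the numbers pair the mice. Arrays with different numbers were not compared in this way.

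For single genes, 897 of 1022 alternative values kept direction and side of the threshold, 92 lost and 28 gained the call, and 5 changed sign, each without passing before or after. These were, with their range over the 12 arrays left out, Tgfbr1 (−0.09 to 0.01, positive without control ASO replicate 4) and Il13ra1 (−0.00 to 0.17, lowest without control ASO replicate 2) in control ASO against PBS, Csf1 in wig-1 ASO against control ASO (−0.18 to 0.45, negative without control ASO replicate 4), and in wig-1 ASO against PBS Il10ra (−0.05 to 0.63) and Il34 (−0.17 to 0.06), both turned without wig-1 ASO replicate 2. Tgfb1 rose relative to PBS in all 21 alternatives that hold its probe, by 0.89 at the least, with the offset. The causes were not tested. Raising undetected signals to the lowest detected signal of the array, an alternative chosen after seeing the data, gave 3 members relative to PBS (with Tgfbr2), 1 relative to control ASO and 12 pathway genes, Jak3 not among them. All measured genes that rose were then 376 relative to PBS and 154 relative to control ASO. A chip block was not run because the headers do not name the chip, and the siggenes test was not run. Signals near the detection limit bound what can be read for Tgfb1, Csf1, Jak3, Socs3, Il10ra and the dimmer probes.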
